A study of Homo sapiens with 15 samples.

Results

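Messenger RNA levels of 9 genes that carry or restrain signals from activating and inhibitory immune receptors were followed in THP-1 cells, a human monocytic leukaemia line, exposed to infliximab or CDP870. The genes are the Src family kinases FYN, FGR and LYN, the kinase CSK that holds them in check, the adaptor TYROBP, the kinase SYK, the phospholipase PLCG2 and the phosphatases PTPN6 and INPP5D. They were taken as a named list, with every non-control probe set annotated to 1 of them alone: 23 probe sets of 54613, and 9 genes of the 19775 that have a probe set of their own. No probe set was shared with another gene. Of the 23 probe sets, 18 passed the filter on low values (above the array's own median on at least 3 of 15 arrays) and were tested, and each of the 9 genes kept at least 1. The 5 others were 1 probe set each of FYN, SYK and INPP5D and 2 of PLCG2, which did not exceed 3.32 on any array.

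Infliximab is a chimeric IgG1 antibody against tumour necrosis factor (TNF), and CDP870, also known as certolizumab pegol, is a Fab' fragment against TNF that is linked to polyethylene glycol and has no Fc part. Cells were exposed to infliximab for 6 or 24 h or to CDP870 for 6 or 24 h, and cells at 0 h without treatment served as the only controls, with 3 arrays in each of these 5 groups. The labels used here give no dose and no untreated cells at 6 or 24 h, so agent and time in culture cannot be told apart in a comparison with 0 h. The cells are 1 leukaemia line, whose growth and treatment the labels give by reference only. The design text names the 3 arrays of each group biological replicates, but separate cultures are not described. The p-values therefore rest on the spread between arrays, which may be technical.

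Immune receptors of the activating kind signal through a paired tyrosine motif, the ITAM, which often sits in an adaptor such as TYROBP (DAP12) or FCER1G. Src family kinases phosphorylate the ITAM, SYK docks on it and is switched on, and SYK in turn activates adaptors and PLCG2, which releases calcium and diacylglycerol signals. Inhibitory receptors carry an ITIM instead, which recruits the tyrosine phosphatase PTPN6 (SHP-1) or the lipid phosphatase INPP5D (SHIP1), and CSK phosphorylates the tail of Src family kinases to keep them closed. FGR and LYN are kinases typical of myeloid cells, whereas FYN is best known from T cells and brain.

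The deposited values are log2 probe set summaries without a known zero, so differences between groups are given on the log2 scale and no probe set's level is set against another's. The arrays' own medians over non-control probe sets were 2.93 to 3.07. Of 14 monocyte markers, 9 were tested, with CD14, CD36 and FCN1 among the others. The 9 averaged 7.46 to 7.59 on infliximab 6 h arrays, 7.47 to 8.05 on infliximab 24 h arrays, 7.24 to 7.40 on CDP870 arrays and 7.11 to 7.50 on untreated arrays. With infliximab CEBPB was called higher than in untreated cells at 6 h (0.88), and CEBPB, ITGB2, CSF1R and CD4 at 24 h (0.61 to 0.95). LYZ, SPI1, MPO, ITGAM and ELANE, also tested, were called at neither time. The 3 tested T cell markers of 6 averaged 3.55 to 3.92 on all arrays. PAX5 of 3 tested B cell markers and NKG7 of 2 tested NK cell markers were called lower with infliximab at 6 h (-0.53 and -0.40). Of 6 epithelial markers, 5 were tested (not CDH1), and the 5 averaged 7.23 to 7.52 with infliximab at 6 h, 7.33 to 7.45 with infliximab at 24 h, 6.23 to 6.47 with CDP870 at 6 h, 6.36 to 6.42 with CDP870 at 24 h and 6.69 to 6.92 in untreated cells. These 5 markers (EPCAM, KRT5, KRT8, KRT18 and KRT19) were all called higher with infliximab than with CDP870 at both times, and 4 of them at 6 h and 5 at 24 h were higher than in untreated cells. The called monocyte markers and the epithelial markers moved in the same arrays as the kinases, and their part in the results was not tested. The hybridisation controls averaged 7.75 ± 0.04 with infliximab at 6 h and 7.38 ± 0.13 in untreated cells (SD, n = 3 each), so this control level differed in the same arrays as the comparison of infliximab at 6 h with untreated cells. Infliximab 24 h replicates 5 and 6 and untreated replicate 3 stood slightly apart, with median correlations of 0.987, 0.990 and 0.990 to the other arrays across probe sets, against 0.991 to 0.993 for the remaining 12.

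Promoter windows are shown for FYN and FGR, which changed most among the 9 genes, and for TYROBP, the adaptor that differed between the agents. Each runs from 250 bases before to 50 bases after an annotated start, read along the gene's strand, from RefSeq (GRCh38.p14), in which 8 of the 9 genes (all but LYN) matched by symbol. Capitals mark GAGGAA or its reverse complement TTCCTC, the core sequence bound by PU.1, a transcription factor of myeloid cells.
FYN, chr6:111873403-111873702, minus strand: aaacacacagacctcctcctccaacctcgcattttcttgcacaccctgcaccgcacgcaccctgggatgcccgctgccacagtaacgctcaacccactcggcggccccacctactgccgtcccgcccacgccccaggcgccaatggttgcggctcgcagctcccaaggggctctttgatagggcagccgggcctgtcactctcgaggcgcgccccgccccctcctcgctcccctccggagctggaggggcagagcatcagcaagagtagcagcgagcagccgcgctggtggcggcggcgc
FGR, chr1:27635136-27635435, minus strand: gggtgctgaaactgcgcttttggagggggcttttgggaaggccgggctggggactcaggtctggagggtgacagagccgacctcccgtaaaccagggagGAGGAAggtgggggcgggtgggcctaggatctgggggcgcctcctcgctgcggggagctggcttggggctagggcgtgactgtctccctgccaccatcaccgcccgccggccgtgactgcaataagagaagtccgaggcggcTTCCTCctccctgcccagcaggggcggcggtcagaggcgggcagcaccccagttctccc
TYROBP, chr19:35908246-35908545, minus strand: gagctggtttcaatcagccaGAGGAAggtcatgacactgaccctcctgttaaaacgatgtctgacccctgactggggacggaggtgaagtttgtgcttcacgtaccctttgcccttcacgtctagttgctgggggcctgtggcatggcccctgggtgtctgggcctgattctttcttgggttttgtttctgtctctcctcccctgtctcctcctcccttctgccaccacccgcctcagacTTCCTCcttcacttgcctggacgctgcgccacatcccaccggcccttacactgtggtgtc
The FGR window shown held 2 matches, 151 and 9 bases before the start, and a second FGR window of the table held none. The TYROBP window held 2, at 230 and 10 bases before the start. FYN had 4 windows in the table, from different annotated starts, and none held a match. Of 2 PTPN6 windows 1 held 1, as did the windows of CSK, INPP5D and PLCG2, while 2 of 3 SYK windows held 1 or 2. Among all 35116 promoter windows, 27.9% held at least 1 match on either strand, so a match is common. The element TGATGNAA of C/EBP-ATF dimers, searched on both strands independently of the other motif, was in 3.62% of all promoters and in none of the 15 windows of these genes. A match is a description of the letters and not a site of binding. SPI1, the gene of PU.1, differed from untreated cells by -0.26 at 6 h and 0.55 at 24 h with infliximab. Neither difference was called (limma adjusted p = 0.799 and 0.571), and SPI1 read 8.86, 6.59 and 6.54 on the infliximab 24 h arrays.

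FYN changed most among the 9 genes. Its probe set with the highest mean, 210105_s_at, read 7.60, 7.75 and 7.66 with infliximab at 6 h and 7.72, 7.98 and 7.61 at 24 h. With CDP870 it read 6.34, 6.21 and 6.17 at 6 h and 6.35, 6.30 and 6.21 at 24 h, and in untreated cells 6.27, 6.25 and 6.30. All 6 infliximab arrays lay above all 9 others, and the CDP870 and untreated arrays overlapped. Against untreated cells FYN rose by 1.40 ± 0.10 at 6 h (SE), a fold of 2.63 with a 95% interval of 2.27 to 3.05, and by 1.50 ± 0.10 at 24 h, a fold of 2.82 (limma adjusted p = 1.43e-06 and 5.56e-07). In total RNA of a culture, a higher share of cells with the transcript and more transcript per cell cannot be told apart.

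**Figure D1:**
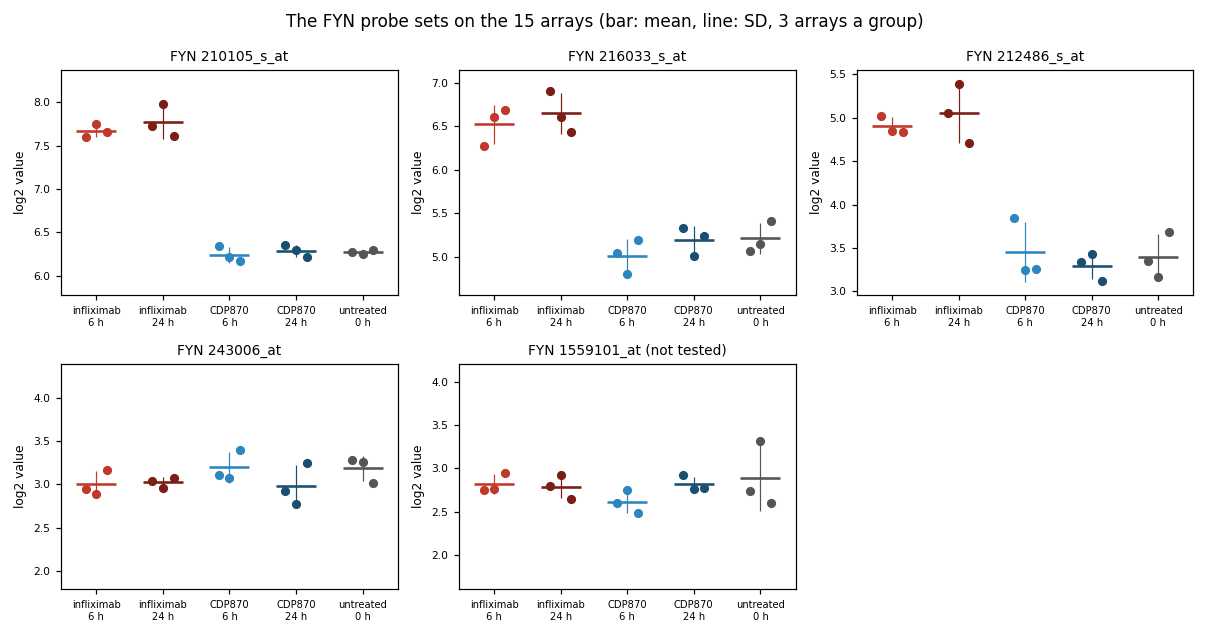
Log2 value of the 5 FYN probe sets on each array (points; 3 arrays a group; horizontal bar, mean; vertical line, SD), with every vertical axis spanning the same log2 range and not starting at 0. On 210105_s_at the infliximab arrays read 7.60 or more and no other array exceeded 6.35, whereas 243006_at and 1559101_at show no such gap.

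Of the other FYN probe sets, 216033_s_at gave 6.27, 6.61 and 6.69 with infliximab at 6 h and 6.91, 6.61 and 6.44 at 24 h, against 5.07, 5.15 and 5.41 in untreated cells. It rose by 1.31 and 1.44 (limma adjusted p = 0.000148 and 5.01e-05). The third, 212486_s_at, gave 5.02, 4.85 and 4.84 and then 5.05, 5.39 and 4.71 with infliximab, against 3.35, 3.17 and 3.68 in untreated cells, and rose by 1.50 and 1.65 (limma adjusted p = 0.000281 and 0.000108). The 6 infliximab arrays lay above the untreated ones on each of these 3 probe sets, and the changes were of like size. Probe set 243006_at stayed near the arrays' median, between 2.78 and 3.40, and differed from untreated cells by -0.18 at 6 h (95% interval -0.46 to 0.10). The fifth, 1559101_at, never exceeded 3.32 and was not tested. Ranked by change among the 28897 tested probe sets, with the largest increase first, the 3 FYN probe sets stood at 49, 67 and 79 at 6 h.

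FGR, the second Src family kinase that rose, is measured by 1 probe set. It read 6.93, 6.92 and 6.72 with infliximab at 6 h, 7.01, 6.89 and 6.79 at 24 h, and 6.10, 6.04 and 6.28 in untreated cells. With CDP870 it read 6.32, 6.11 and 6.14 at 6 h and 6.14, 6.03 and 5.93 at 24 h. Again the 6 infliximab arrays lay above the other 9, and the gap of 0.67 between infliximab 6 h and CDP870 6 h, the next group down, exceeded the larger SD of 0.12. FGR rose by 0.72 ± 0.10 at 6 h and 0.76 ± 0.10 at 24 h (SE), folds of 1.64 and 1.69 (limma adjusted p = 0.000916 and 0.000557). With the hybridisation control level of each array as a covariate the difference at 6 h was 0.71 and the call was lost (limma adjusted p = 0.0597).

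LYN, which phosphorylates both ITAMs and ITIMs in myeloid cells, differed less, and its 3 probe sets did not give the same calls. Probe set 202625_at read 7.06, 7.18 and 7.27 with infliximab at 6 h and 7.25, 7.24 and 7.12 at 24 h, against 6.61, 6.57 and 6.77 in untreated cells. It rose by 0.52 and 0.55 (limma adjusted p = 0.013 and 0.0103), and the infliximab and untreated arrays did not overlap. The call at 6 h was lost without infliximab 6 h replicate 10 (0.47, limma adjusted p = 0.0568) or with the hybridisation controls as a covariate (0.64, limma adjusted p = 0.112). That at 24 h was lost with only the arrays compared (0.55, limma adjusted p = 0.0981) or without the 3 arrays that stood apart (0.43, limma adjusted p = 0.211). On 210754_s_at, the probe set with the highest mean, LYN read 7.24, 7.44 and 7.34 with infliximab at 6 h and 7.66, 7.01 and 7.31 at 24 h, against 7.01, 7.09 and 6.90 in untreated cells. Its differences of 0.34 and 0.33 did not pass (limma adjusted p = 0.134 and 0.173), nor did those of 0.15 and 0.24 on 202626_s_at. With array weights the difference of 210754_s_at at 6 h was 0.37 and was called (limma adjusted p = 0.0246). The mean of the LYN probe sets was called at both times, with differences of 0.34 and 0.37 (limma adjusted p = 0.0298 and 0.0195).

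Of other Src family kinases, SRC, LCK, YES1 and BLK had a tested probe set, and 0 of these 4 were called with infliximab against untreated cells at either time (limma adjusted p of at least 0.219). SRC differed by -0.23 at 6 h (95% interval -0.51 to 0.04) and BLK by -0.15 (-0.42 to 0.11). The medians of the 4 were -0.12 at 6 h and 0.02 at 24 h, against -0.05 and -0.02 over all 13607 tested genes.

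CSK, the kinase that closes Src family kinases, was not called in any comparison. It read 7.82, 7.68 and 7.66 with infliximab at 6 h and 7.91, 8.06 and 7.60 at 24 h, against 7.81, 8.28 and 7.91 in untreated cells. The groups overlapped, and the difference at 6 h was -0.28 (95% interval -0.58 to 0.02, limma adjusted p = 0.249). PAG1, the membrane anchor that recruits CSK to Src family kinases, rose more than any other of the 21 tested genes among 23 listed regulators of these kinases and inhibitory partners. PAG1 read 5.22, 5.52 and 5.31 with infliximab at 6 h and 5.49, 5.82 and 5.59 at 24 h, against 4.14, 3.81 and 4.30 in untreated cells, without overlap. It rose by 1.27 ± 0.13 and 1.55 ± 0.13 (SE, limma adjusted p = 3.85e-05 and 4.10e-06). SLA, an adaptor that dampens receptor signalling, rose by 0.47 and 0.50 (limma adjusted p = 0.0096 and 0.00811). MATK, a kinase related to CSK, fell by 0.50 and the phosphatase gene PTPN1 fell by 0.46 at 6 h (limma adjusted p = 0.0167 and 0.0385). Thus 2 of the 21 tested regulators rose and 2 fell at 6 h, and 2 rose and 0 fell at 24 h. Of all tested probe sets 8.42% and 6.57% were called in either direction. The medians of the 21 were -0.003 and 0.11, against -0.05 and -0.02 over all genes. Here and for the lists below, each gene counts once, by its tested probe set of highest mean. The shares beside these counts are over all tested probe sets and not over genes.

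TYROBP read 8.56, 8.60 and 8.73 with infliximab at 6 h and 8.81, 8.53 and 8.57 at 24 h, against 8.30, 8.56 and 8.27 in untreated cells. Untreated replicate 3 reached into the infliximab range. The differences of 0.25 and 0.26 did not pass the threshold (95% intervals 0.04 to 0.47 and 0.04 to 0.48, limma adjusted p = 0.142 and 0.152). FCER1G, the other broadly used ITAM adaptor of myeloid cells, rose by 0.65 and 0.66 with infliximab (limma adjusted p = 0.00196 and 0.00202), reading 7.93, 7.98 and 7.92 at 6 h and 7.99, 7.76 and 8.10 at 24 h, against 7.41, 7.38 and 7.09 in untreated cells. Among the 11 tested genes of 18 ITAM adaptors and receptors that use them, FCER1G alone was called at 6 h. At 24 h OSCAR, a receptor that pairs with FCER1G, also rose by 0.64 and CD300LB, a receptor that pairs with TYROBP, fell by 0.42 (limma adjusted p = 0.0242 and 0.0328). These 1 and 3 calls among 11 genes stand beside 8.42% and 6.57% of all tested probe sets, and the medians of the 11 were 0.09 and 0.04, against -0.05 and -0.02 over all genes.

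**Figure D2:**
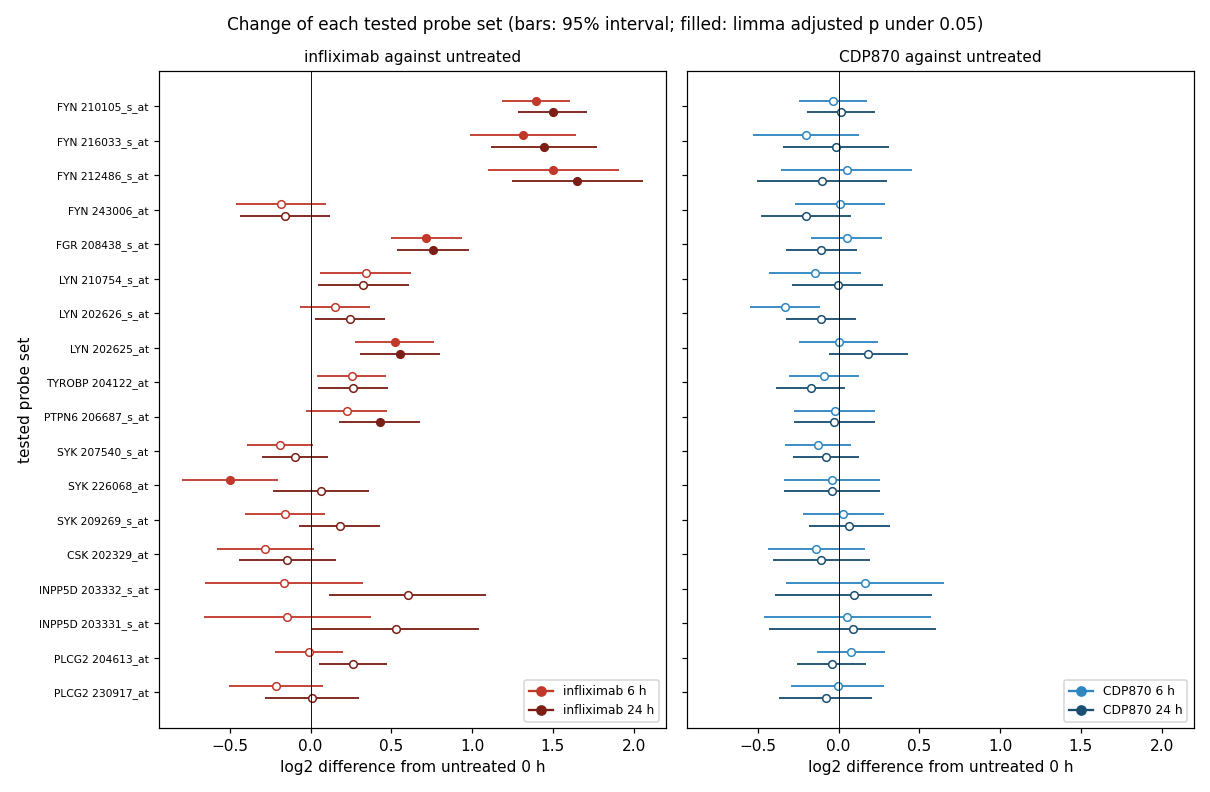
Log2 difference from untreated cells for each of the 18 tested probe sets (points, with 95% intervals; filled where limma's adjusted p was under 0.05), with infliximab on the left and CDP870 on the right. On the left 3 of 4 FYN probe sets, FGR and LYN 202625_at are filled at both times, SYK 226068_at at 6 h and PTPN6 at 24 h, and no point is filled on the right.

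SYK, the kinase that docks on ITAMs, did not give the same calls on its 3 tested probe sets. The one with the highest mean, 207540_s_at, lay between 7.56 and 7.92 on all arrays and was called in no comparison. With infliximab at 6 h it differed from untreated cells by -0.19, without overlap (limma adjusted p = 0.247). On 226068_at SYK read 6.92, 6.68 and 6.95 with infliximab at 6 h, against 7.24, 7.49 and 7.31 in untreated cells, and fell by 0.50 ± 0.14 (SE, limma adjusted p = 0.0395). All 3 infliximab 6 h arrays lay below the untreated ones on this probe set, but the call was lost under 14 of 24 alternatives. At 24 h it read 7.61, 7.60 and 7.03 with infliximab, a difference of 0.07 from untreated cells (95% interval -0.23 to 0.36). On 209269_s_at the differences were -0.16 at 6 h, without overlap, and 0.18 at 24 h, and neither passed. With the mean of the tested SYK probe sets the difference at 6 h was -0.28 and was called (limma adjusted p = 0.0494).

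PLCG2, the phospholipase activated below SYK, was not called in any comparison. Its probe set 204613_at lay between 7.25 and 7.78 on all arrays, and it differed from untreated cells by -0.01 at 6 h and by 0.26 at 24 h (95% intervals -0.22 to 0.20 and 0.05 to 0.48, limma adjusted p = 0.968 and 0.139). On its other tested probe set, 230917_at, the differences were -0.21 and 0.01. Among the 28 tested genes of 33 adaptors and kinases listed downstream of SYK, 4 rose and 1 fell at each time with infliximab, where 8.42% and 6.57% of all tested probe sets were called. GAB2, a docking adaptor for phosphoinositide 3-kinase, read 5.50, 5.44 and 5.50 with infliximab at 6 h and 5.82, 5.60 and 5.71 at 24 h, against 4.61, 4.96 and 5.10 in untreated cells, and rose by 0.59 and 0.82 (limma adjusted p = 0.0139 and 0.0021). The membrane adaptor LAT2 rose by 0.42 and 0.40, the protein kinase C gene PRKCB by 0.42 and 0.44, and SKAP2, an adaptor partner of Src kinases in integrin signalling, by 0.38 and 0.36. LAT, best known as the T cell counterpart of LAT2, fell by 0.49 and 0.43 (limma adjusted p = 0.0182 and 0.0389). The medians of the 28 genes were -0.04 and 0.16, against -0.05 and -0.02 over all genes.

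On the inhibitory side, PTPN6 read 8.20, 8.10 and 8.15 with infliximab at 6 h and 8.65, 8.34 and 8.07 at 24 h, against 7.87, 8.0 and 7.91 in untreated cells. All 6 infliximab arrays lay above the untreated ones, by the least for 24 h replicate 7. PTPN6 rose by 0.43 ± 0.12 at 24 h (SE, limma adjusted p = 0.0425), a call that 17 of 25 alternatives did not keep. The difference was 0.28 without infliximab 24 h replicate 5 (limma adjusted p = 0.124). At 6 h PTPN6 differed by 0.22 (95% interval -0.03 to 0.47, limma adjusted p = 0.268). INPP5D on 203332_s_at read 7.48, 7.24 and 7.55 with infliximab at 6 h and 8.63, 8.50 and 7.43 at 24 h, against 7.52, 7.78 and 7.46 in untreated cells. At 24 h replicates 5 and 6 lay above every other array while replicate 7 lay below all 3 untreated ones, and the difference of 0.60 did not pass (limma adjusted p = 0.143). Its other tested probe set, 203331_s_at, had the same split, with 6.73, 5.99 and 5.30 at 24 h against 5.46, 5.48 and 5.50 in untreated cells. SYK on 226068_at and 209269_s_at divided the same 3 arrays in the same way. Replicates 5 and 6 are also 2 of the 3 arrays that stood apart over all probe sets. Without replicate 7 the INPP5D difference was 0.98 (limma adjusted p = 0.00053), and the SYK difference on 209269_s_at was 0.33 (limma adjusted p = 0.0473).

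**Figure D3:**
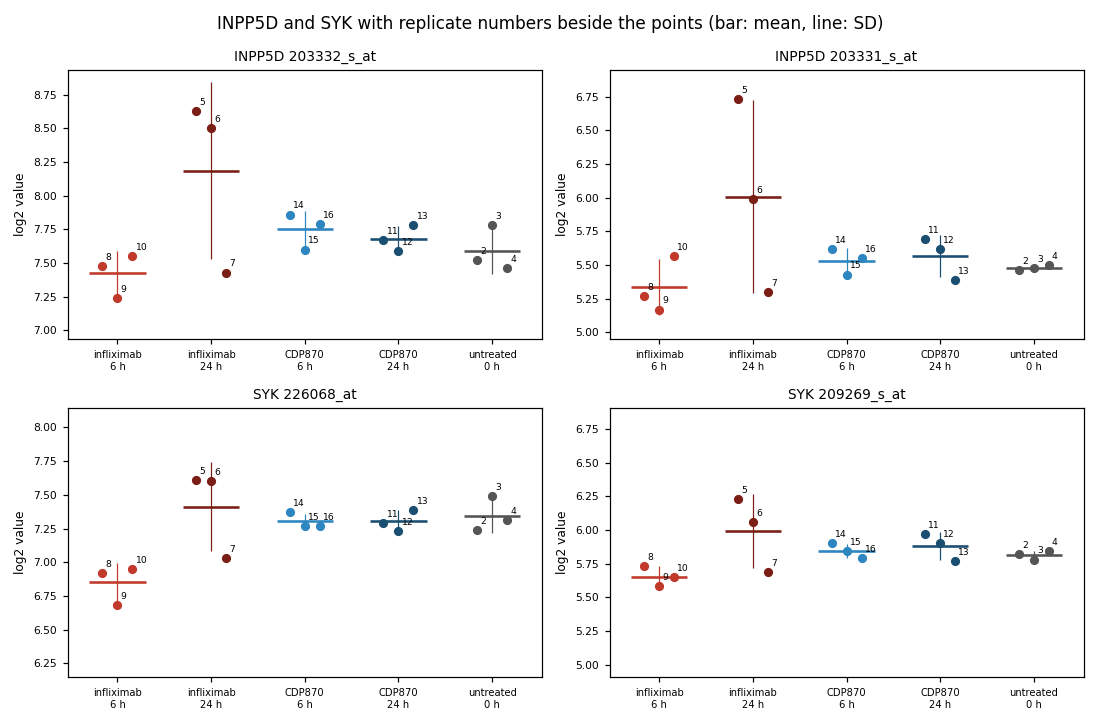
Log2 value of INPP5D and SYK probe sets on each array, with the replicate number beside each point (bar, mean; line, SD; 3 arrays a group; axes do not start at 0). Infliximab 24 h replicates 5 and 6 lie above replicate 7 in all 4 panels, the closest being 209269_s_at with 6.23 and 6.06 against 5.69.

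Of 19 listed ITIM receptors of myeloid cells 14 were tested, and 2 rose at 6 h and 3 at 24 h with infliximab, with 0 lower, where 8.42% and 6.57% of all tested probe sets were called. CD300A, an inhibitory receptor that recruits PTPN6, read 4.75, 5.43 and 5.33 at 6 h and 5.67, 5.28 and 5.56 at 24 h, against 4.06, 3.68 and 3.97 in untreated cells, and rose by 1.27 and 1.60 (limma adjusted p = 0.000279 and 2.49e-05). LAIR1, an inhibitory collagen receptor, rose by 0.37 at 6 h, and PECAM1 and CD300LF rose by 0.48 and 0.37 at 24 h. The medians of the 14 were 0.15 and 0.29, against -0.05 and -0.02 over all genes.

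Counted over the 18 tested probe sets of the 9 genes, 6 were called with infliximab at 6 h against untreated cells (5 higher and 1 lower), where 8.42% of all tested probe sets were called. At 24 h 6 were called, all higher, where 6.57% of all were. The median change of the 9 genes, each by its probe set with the highest mean, was 0.22 at 6 h and 0.33 at 24 h, against -0.05 and -0.02 over all genes. Probe sets of 1 gene share their transcript, and 3 of the calls at each time are FYN. Both comparisons share the untreated arrays. Among only the probe sets with a mean above the 75th percentile, 5 of the 15 that belong to these genes were called at each time. That set is the part of the 54613 non-control probe sets above the 75th percentile of mean level, so it is much smaller than the 28897 tested. In it 2783 of all were called at 6 h and 2074 at 24 h, against 2432 and 1899 among all 28897. The share called over all is therefore larger among probe sets of high level than the 8.42% and 6.57% given here. As 15 of the 18 probe sets of these genes are of that level, those shares are a low background for them.

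With CDP870 0 of the 18 were called at 6 h and 0 at 24 h with limma, as for all tested probe sets (0% in both comparisons). At an unadjusted p under 0.05 there was 1 of 18 at 6 h and 0 at 24 h, with 1352 and 1359 of the 28897 over the whole table. The 1 was LYN on 202626_s_at, which read 6.92, 6.74 and 6.65 with CDP870 at 6 h, against 7.02, 7.23 and 7.06 in untreated cells, a difference of -0.33 (limma adjusted p = 0.787). FYN on 210105_s_at differed from untreated cells by -0.03 at 6 h (95% interval -0.25 to 0.18) and 0.01 at 24 h (-0.20 to 0.23), and FGR by 0.05 (-0.17 to 0.27) and -0.11 (-0.33 to 0.12). No gene of the 5 pathway lists was called with CDP870 at either time. The medians of the 9 genes were -0.03 and -0.04, next to -0.01 and -0.04 over all genes.

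**Figure D4:**
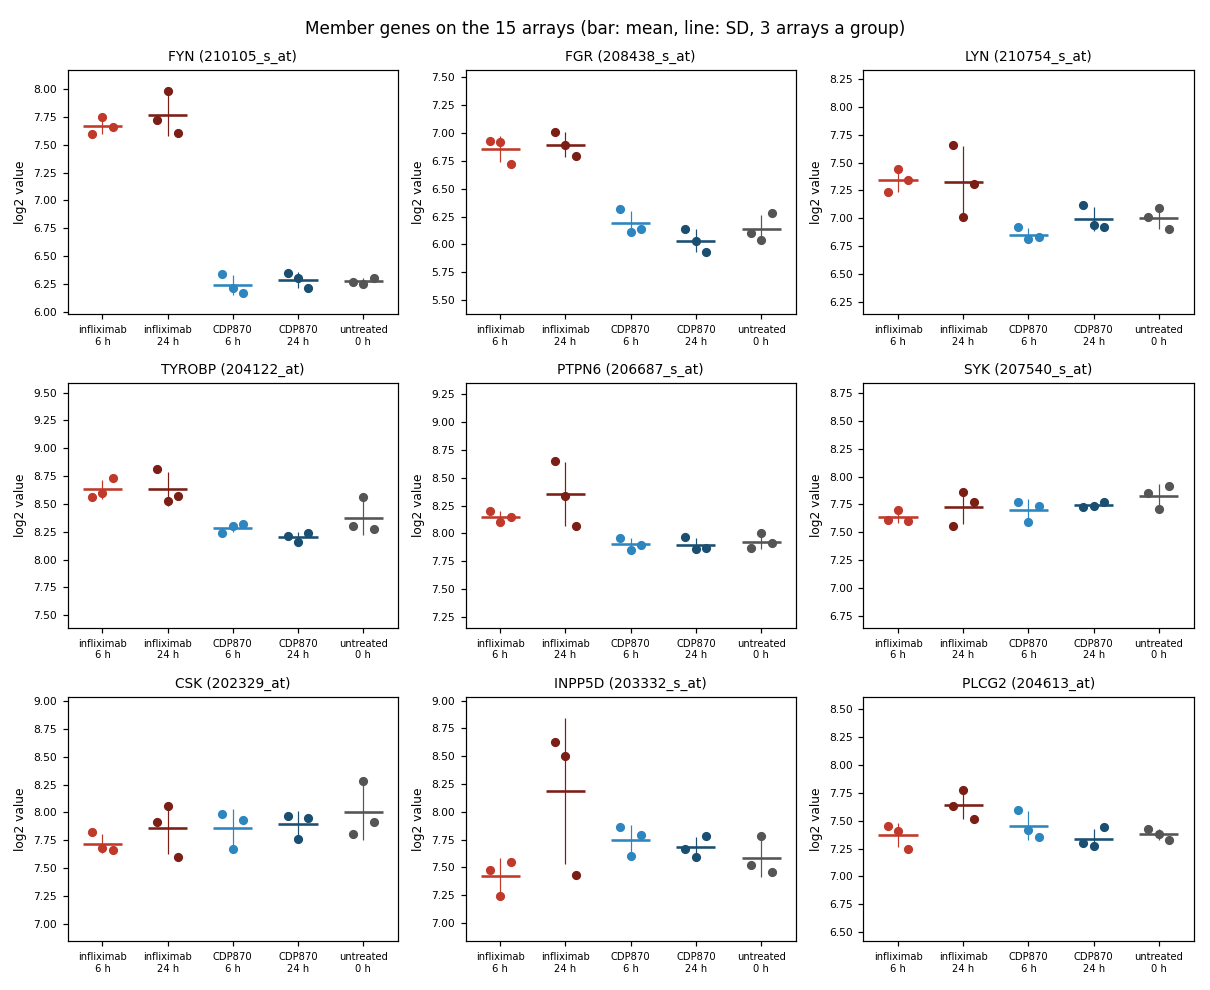
Log2 value of the 9 genes on each array, 1 probe set each, the tested one of highest mean (points; bar, mean; line, SD; 3 arrays a group; every panel spans the same log2 range and none starts at 0). The infliximab arrays lie above all others for FYN and FGR, while for SYK, CSK and PLCG2 their range overlaps that of the other arrays.

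The 2 agents were then set against each other at the same time, which removes the time in culture from the comparison. The labels give no dose, so the amounts may have differed. At 6 h 8 of the 18 probe sets were higher with infliximab than with CDP870 and 0 lower, where 9.07% of all were called, and at 24 h 6 were higher and 0 lower, where 6.51% of all were called. FYN differed by 1.43 ± 0.10 at 6 h and 1.48 ± 0.10 at 24 h on 210105_s_at, and FGR by 0.67 ± 0.10 and 0.86 ± 0.10 (SE, limma adjusted p of at most 0.00131 for these 4). All 3 LYN probe sets were called at 6 h, with differences of 0.49 (210754_s_at), 0.48 (202626_s_at) and 0.52 (202625_at). At 24 h they differed by 0.33, 0.35 and 0.37 and did not pass (limma adjusted p = 0.166, 0.0508 and 0.0725). The calls at 6 h were lost under 8 of 25 alternatives for 210754_s_at, 1 of 24 for 202626_s_at (without CDP870 6 h replicate 16) and 2 of 24 for 202625_at (without that array or without infliximab 6 h replicate 10).

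TYROBP read 8.24, 8.30 and 8.32 with CDP870 at 6 h and 8.21, 8.16 and 8.24 at 24 h, below all 6 infliximab arrays. It was higher with infliximab by 0.34 at 6 h and 0.43 at 24 h (limma adjusted p = 0.047 and 0.0188), and these calls were lost under 13 and 5 of 25 alternatives, the second among them without infliximab 24 h replicate 5 (0.35, limma adjusted p = 0.0712). PTPN6 was higher by 0.45 at 24 h (limma adjusted p = 0.0318, lost under 9 of 25) and differed by 0.25 at 6 h (limma adjusted p = 0.209). For SYK on 226068_at the difference at 6 h was -0.45 (95% interval -0.75 to -0.16, limma adjusted p = 0.0557), and at 24 h it was 0.11 (-0.19 to 0.41).

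Averaged over both times, 9 of 18 probe sets were higher with infliximab than with CDP870 and 0 lower, where 16% of all tested probe sets were called. They were FYN on 3 probe sets (1.46, 1.49 and 1.60), FGR (0.77), LYN on 3 (0.41, 0.42 and 0.45), TYROBP (0.39) and PTPN6 (0.35). All 9 calls were kept under each alternative in which the probe set was tested. SYK, CSK, INPP5D and PLCG2 were not called, with differences between -0.17 and 0.12 on their 8 probe sets. For INPP5D on 203332_s_at this average joins opposite differences that were not called. They were -0.33 at 6 h, without overlap, and 0.51 at 24 h (limma adjusted p = 0.402 and 0.231). For CSK the 95% interval was -0.30 to 0.12, and for SYK on 207540_s_at it was -0.18 to 0.10.

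**Figure D5:**
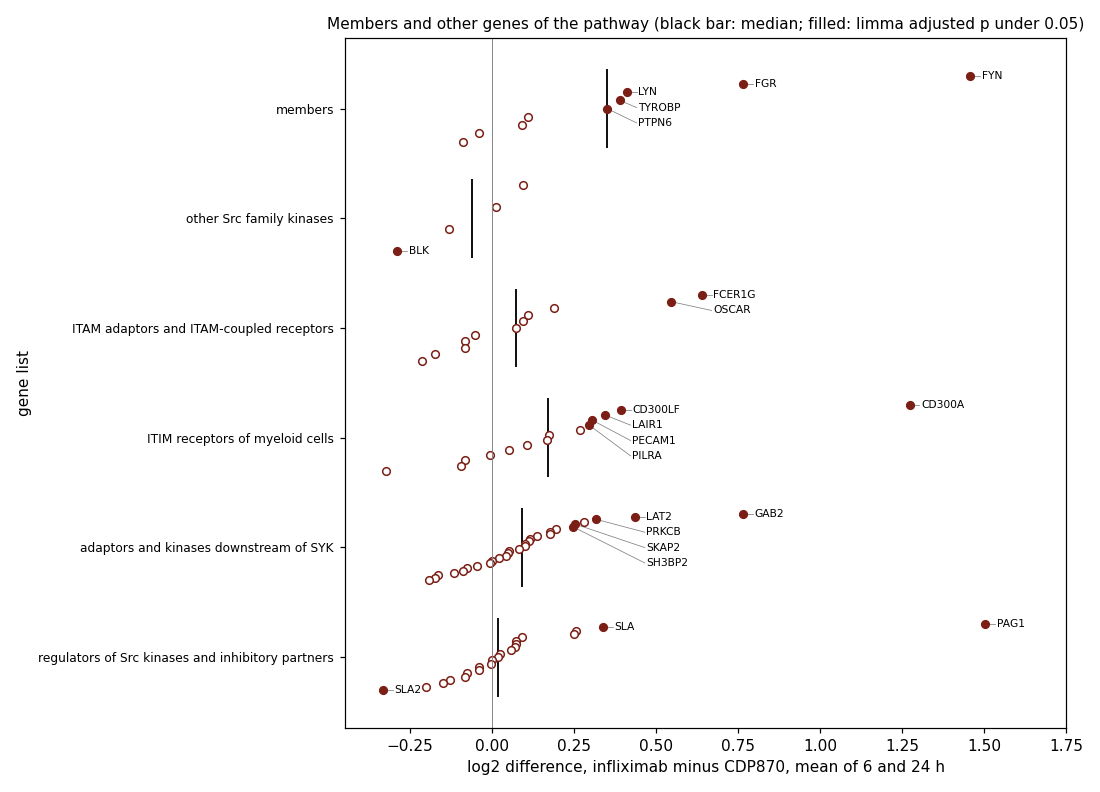
Log2 difference between infliximab and CDP870, averaged over 6 and 24 h, for the 9 genes (members) and the tested genes of 5 pathway lists (points; filled and named where limma's adjusted p was under 0.05; black bar, list median; vertical position within a list only spreads the points). FYN and PAG1 lie near 1.5 and CD300A at 1.27, while most genes listed as ITAM adaptors and receptors, as downstream of SYK or as regulators lie within 0.25 of 0.

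The calls of the pathway lists in the same comparison are to be read against the same 16%. That share is over all tested probe sets, while each listed gene counts by its tested probe set of highest mean. The calls of 3 of 21 regulators, 2 of 11 ITAM genes and 5 of 28 genes downstream of SYK lie near that share. PAG1 was higher with infliximab by 1.50, SLA was higher by 0.34 and SLA2, a relative of SLA, was lower (-0.33), 3 calls among 21 regulators. CD300A was higher by 1.27, and CD300LF, LAIR1, PECAM1 and PILRA by 0.30 to 0.39, so that 5 of 14 ITIM receptors were called. FCER1G was higher by 0.64 and OSCAR by 0.55, 2 of 11 ITAM adaptors and receptors. Of these called genes, PILRA read 2.78 to 3.57, SLA2 3.21 to 3.98 and OSCAR 2.99 to 4.32 over all arrays. These are low values beside the arrays' medians of 2.93 to 3.07, with PILRA the nearest to them. Downstream of SYK 5 of 28 were higher, namely GAB2 (0.76), LAT2, PRKCB, SKAP2 and SH3BP2. BLK, a Src family kinase of B cells that lay near the arrays' median, was lower (-0.29, limma adjusted p = 0.0374), 1 of 4 other family members. The list medians ran from -0.06 for the other Src family kinases to 0.17 for the ITIM receptors, against 0.35 for the 9 genes and -0.02 over all genes.

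Between the times of infliximab 0 of 18 probe sets were called with limma, 0% over the whole table, and 5 of 18 had an unadjusted p under 0.05 (3437 of 28897 overall). These 5 were INPP5D on both tested probe sets, SYK on 226068_at and 209269_s_at and PLCG2 on 204613_at. The differences, 24 h minus 6 h, were 0.76 and 0.67 for INPP5D, 0.56 and 0.34 for SYK and 0.27 for PLCG2 (limma adjusted p of 0.3 to 0.326). FYN differed between the times by 0.10 (95% interval -0.11 to 0.31) and FGR by 0.04 (-0.18 to 0.26). Without infliximab 24 h replicate 7, 4 of 18 were called, all higher at 24 h, namely both INPP5D and the same 2 SYK probe sets. Between the times of CDP870 0 were called (0% overall), and 1 of 18 had an unadjusted p under 0.05 (1437 overall).

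Whether the difference between the agents changed with time was tested as an interaction. Of the 18 probe sets 0 were called with limma (0% overall), and 3 had an unadjusted p under 0.05 (2642 overall). They were SYK on 226068_at (0.56), PLCG2 on 204613_at (0.39) and INPP5D on 203332_s_at (0.83), each with a larger infliximab minus CDP870 difference at 24 h than at 6 h and a limma adjusted p of 0.502 to 0.506. For FYN on 210105_s_at the interaction was 0.05 (95% interval -0.25 to 0.35) and for FGR 0.20 (-0.12 to 0.51). Tested for any difference among the 5 groups, 7 of 18 probe sets were called (9.43% overall), namely FYN on 3, FGR, LYN on 2 and TYROBP.

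Ordered by group mean, FYN and FGR were highest with infliximab at 24 h and next with infliximab at 6 h, and these neighbours differed by less than the larger of their SDs. The step from infliximab 6 h down to the next group was 1.38 for FYN and 0.67 for FGR, beyond that SD, and the 3 groups without infliximab were not separated for either gene. TYROBP, PTPN6 and LYN had the same 2 infliximab groups on top. For SYK on 207540_s_at and CSK the untreated group had the highest mean, infliximab at 6 h had the lowest, and no step between neighbours exceeded the larger SD.

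The genes whose values over the 15 arrays were most like those of each called member were found among 13598 other genes by Pearson's r, as a description that includes the differences between the 5 groups. For FYN they were GARS1, DDIT4 and ASNS (r = 0.99 each), which were higher with infliximab than with CDP870 by 1.17, 2.83 and 3.39, and the least like was DCTPP1 (r = -0.98). For FGR they were ALDH1L2, PCK2 and SIAH2 (r = 0.97 each), with ATP5MC3 lowest (-0.97). LYN was most like DGAT2, ATG12 and DNTTIP1 (0.92 to 0.93) and least like MAN1A2 (-0.92). TYROBP was most like IFITM2, CAPG and HINT2 (0.96 to 0.97) and least like FEN1 (-0.97), and PTPN6 was most like ITGAL, SEMA4A and MUS81 (0.95 to 0.97) and least like RFC5 (-0.96). SYK had weaker matches, EXT2, STARD7 and MAK16 (0.82 to 0.85), and was least like UBE2B (-0.87). These SYK matches are those of 207540_s_at, which was called in no comparison. Its r with the called SYK probe set 226068_at was 0.22, so they do not describe that probe set.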

How the data were processed

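The authors deposited 1 log2 summary per probe set and array. GCRMA and GCOS 1.3.0 appear in the submitters' processing notes, with no role given, and further normalization is not given in the sources used here. All 15 columns matched a sample by name. The arrays have similar distributions, so a shift common to most genes cannot show in them, and folds are least certain for low values.

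Probe sets were named from the platform annotation, with symbols updated by Entrez ID (41037 of 41091 with 1 symbol). A probe set was tested if above its array's 50th percentile on at least 3 of 15 arrays, which kept 28897 probe sets. Those of them with 1 symbol covered 13607 genes. In limma 3.58.1 (R 4.3.3) all 15 arrays entered a linear model of the 5 group means, with two-sided tests, Benjamini-Hochberg adjustment over all tested probe sets within each of 11 comparisons, and a call at adjusted p under 0.05. Each gene is given by whichever of its tested probe sets has the highest mean, and a probe set ending in _s_at can match several transcripts. The number of arrays limits the precision. The fit was tested on simulated data in which only a small set of probe sets differed. For infliximab at 6 h against untreated cells, it called 36% of simulated log2 differences of 0.5 and 89.33% of those of 1.0. Where no difference was set, 0% were called. A result of 0.5 or less without a call therefore does not show that a difference is absent.

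The 9 genes and the pathway and marker lists were chosen with earlier results of these data known, so counts over them are descriptions. From each list the up to 4 called genes with the smallest p are named in each comparison with infliximab, or 2 as values where none was called. For each called gene of the 9, the 3 most alike genes and the 1 least alike are named. The text adds a few genes beyond this rule, the fifth called gene of a list, where a count is small. The alternatives were quantile normalization repeated, centring on the median, other filters, array weights, another prior, the hybridisation controls as a covariate, only the arrays compared, the mean of a gene's probe sets, leaving out each array in turn, and leaving out the 3 arrays that stood apart. The plots were made in Python 3.11.15 with matplotlib 3.10.9.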

Additional observations from a re-analysis of the deposited data

How the results depend on the processing

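Of 35 calls on probe sets of the 9 genes, 24 were kept under each of the 25 alternatives in which the probe set was tested, 11 were lost under at least 1 and 0 changed direction. FYN on 3 probe sets kept every call, and FGR kept every call but the 1 at 6 h against untreated cells. The calls lost most often were PTPN6 at 24 h against untreated cells (17 of 25 alternatives), SYK on 226068_at at 6 h (14 of 24) and TYROBP between the agents at 6 h (13 of 25). A further 25 results without a call gained a call under at least 1 alternative.

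With the hybridisation control level as a covariate 3 of 18 probe sets, in place of 6, were called for infliximab at 6 h against untreated cells, and 181 in place of 2432 over the whole table. Leaving out 1 array at a time, the calls among the 18 ranged from 4 to 7 for infliximab at 6 h and 5 to 9 at 24 h against untreated cells, 4 to 9 between the agents at 6 h, 4 to 10 at 24 h, 9 to 10 over both times, 0 to 4 between the times of infliximab, 0 to 3 for the interaction and 6 to 12 for any difference. The lowest between the agents at 6 h came without CDP870 6 h replicate 16 (4) and infliximab 6 h replicate 10 (5). The highest at 24 h (10), between the infliximab times (4), for the interaction (3) and for any difference (12) came without infliximab 24 h replicate 7, after which 2462 probe sets in place of 0 were called between the infliximab times and 920 in place of 0 for the interaction. Without the 3 arrays that stood apart, INPP5D on 203332_s_at was lower with infliximab over both times (-0.29, limma adjusted p = 0.0351), in place of a difference of 0.09, and the lone infliximab 24 h array is then assumed to vary like the other groups. The causes were not tested.

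Over the whole table, the other alternatives gave 181 to 4588 calls for infliximab at 6 h and 200 to 2291 at 24 h against untreated cells, 752 to 6326 and 331 to 2217 between the agents, 3956 to 6422 over both times, 0 to 280 between the times of CDP870, at most 11 for CDP870 against untreated cells, and 1695 to 6014 for any difference. Leaving out 1 array gave 1156 to 3187, 1120 to 2620, 1181 to 3326, 1074 to 2891 and 3557 to 5262 for the same 5 infliximab comparisons, and 1738 to 4673 for any difference. No paired analysis was made because the labels give no pairing of arrays between groups. The replicate numbers are running numbers from the sample titles and come in blocks by group. If they reflect an order of handling, its effect cannot be told apart from that of the group.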
